A study of Mus musculus with 2 samples.

Results

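The high mobility group (HMG) genes encode abundant chromatin proteins, and 9 of them were named for this description: *Hmgb1*, *Hmgb2*, *Hmgb3*, *Hmgn1*, *Hmgn2*, *Hmgn3*, *Hmgn5*, *Hmga1* and *Hmga2*. They were chosen by symbol around *Hmgb2*, which was known from earlier results in these same cells to vary strongly with the cell cycle. The variation of *Hmgb2* along the cell-cycle position is therefore given as a description only. Of the 10666 genes of the expression table, 8 are members. *Hmgn2* was not analysed here.

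Single cells of mouse neurospheres, which are balls of neural progenitors that float in culture, were profiled with 10x Genomics Chromium libraries. Dorsal telencephalon of wild-type C57BL/6 embryos (E14.5) was the source, and both EGF and bFGF were given at 10 ng/ml. There are 2 replicate cultures of this 1 condition, with 5748 cells in culture 1 and 7057 in culture 2, so no groups were tested, cells were not treated as replicates and the spread is that between the cultures. The median total was 19477 UMIs per cell in culture 1 and 14637 in culture 2, and 48 cell barcodes occur in both libraries.

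Of 6 measured radial glia markers, *Fabp7*, *Vim*, *Nes* and *Slc1a3* were above 0 in at least 89.8% of the cells of each culture, *Hes1* in 44.5% and 50.5%, and *Pax6* in 21.1% and 23.1%. The oligodendrocyte lineage gene *Olig2* was above 0 in 97.3% and 91.9% of cells, and the neuroblast gene *Dcx* in 7.34% and 1.56%. None of the 6 radial glia, 3 neuroblast, 4 oligodendrocyte progenitor and 2 astroglia markers that were measured met the rule for variation with the position that is given below. Of all 10666 genes, 428 (4.01%) met it. Markers of endothelial cells, microglia, fibroblasts, pericytes and erythroid cells were not analysed here.

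The HMG proteins fall into families that bind DNA or nucleosomes without sequence specificity of the usual kind. HMGB proteins bend DNA through HMG boxes, HMGN proteins bind nucleosome core particles and compete with linker histones, and HMGA proteins bind the minor groove of AT-rich DNA through AT hooks. *Hmgb2* is known as a gene of proliferating cells and is used as a G2 and M marker, *Hmgb1* is widely expressed, and *Hmga2* is known for its high level in fetal neural stem cells. *Hmgb2* is in the G2M gene list of Seurat and in the marker pairs of cyclone, and none of the other 7 members is in either list.

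The cell-cycle position deposited by the authors is an angle from 0 to 2π radians. Landmark genes place the phases on it. The loess line of *Mcm6*, a subunit of the replicative helicase, had its maximum at 0.683π ± 0.0530 (SD, n = 2 cultures) and that of *Pcna*, the sliding clamp of DNA replication, at 0.730π ± 0.0424. The line of *Top2a*, the topoisomerase of chromosome segregation, peaked at 0.983π ± 0.0530 and that of *Mki67*, a coat protein of mitotic chromosomes, at 1.12π ± 0.00707. The 42 S genes of Seurat had their median maximum at 0.738π and 0.665π in the respective cultures, and 47 G2M genes other than *Hmgb2* at 1.15π and 1.14π.

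A gene was called varying when 2 harmonics of the position explained at least 5% of the variance of log2(value + 1) over cells (R2 of at least 0.05) in both cultures. Of the 8 members, 5 were called, where 428 of all 10666 genes (4.01%) were. The called members are *Hmgb1*, *Hmgb2*, *Hmgb3*, *Hmgn1* and *Hmgn5*, and the lower R2 of the cultures had a median of 0.0588 over the 8 members and of 0.00183 over all genes. Since the set was built around a gene known to vary, nothing is read from this count about HMG genes as a class. With an R2 of at least 0.1 as the threshold, *Hmgn1* and *Hmgn5* dropped out and 3 members remained.

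**Figure D1:**
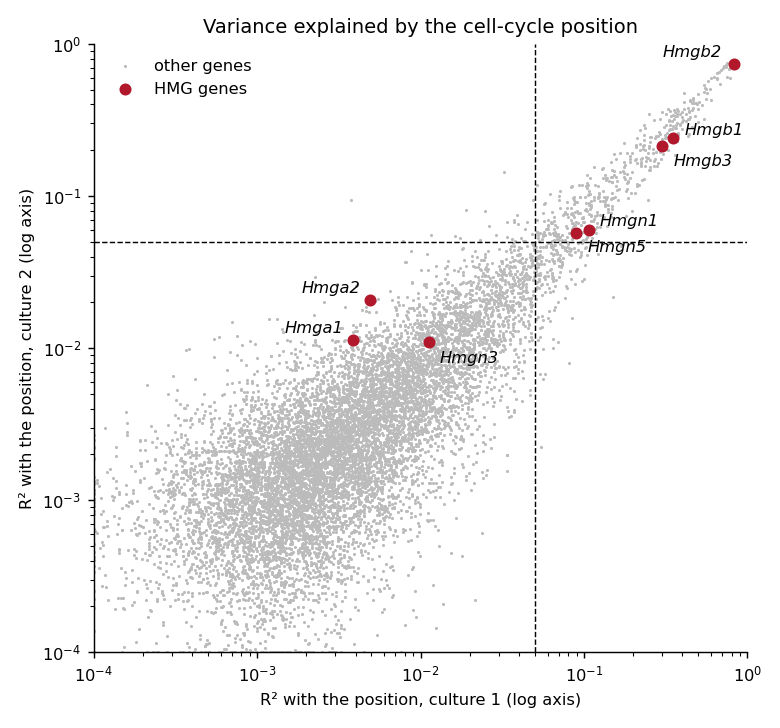
R2 of each gene with 2 harmonics of the cell-cycle position, culture 1 on the x axis and culture 2 on the y axis, both on log axes and without unit. Each grey point is 1 of the 10666 genes, red points are the 8 HMG genes, and dashed lines mark 0.05. *Hmgb2* lies at the upper right corner, *Hmgb1* and *Hmgb3* lie next to each other, and *Hmgn3*, *Hmga1* and *Hmga2* lie below both lines. Values under 0.0001 are drawn at the edge.

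*Hmgb2* had an R2 of 0.832 in culture 1 and 0.739 in culture 2, which by the lower value ranks 2 among all genes. *Hmgb1* followed with 0.352 and 0.239, and *Hmgb3* with 0.301 and 0.213. *Hmgn1*, which encodes a nucleosome-binding protein, had 0.107 and 0.0601. The values of *Hmgn5*, which lies on the X chromosome like *Hmgb3*, were 0.0896 and 0.0575. R2 was 0.0112 and 0.0110 for *Hmgn3*, 0.00386 and 0.0113 for *Hmga1* and 0.00489 and 0.0206 for *Hmga2*. Every called member had a larger R2 in culture 1, the more deeply sequenced culture (the part of depth was not tested), and the 3 members that were not called stood well apart from the lowest called one.

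Levels need a remark on scale. The deposited values are normalized for the depth of each cell, but rescaled to the cell's total UMIs the low values of *Hmgb2* clustered most often at 1.48 in culture 1 and 1.68 in culture 2, and those of *Hmga1* at 0.475 in both. A single molecule thus does not have the same value for every gene or culture. Levels are compared below along the position, within a gene and a culture, and not between genes.

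*Hmgb2* (ENSMUSG00000054717) lies at chr8:57511907-57515999 on the plus strand of GRCm38, and the gene coordinates given here and below are those of GENCODE on that build. Along the position, its loess line rose from a minimum of 0.96 at 1.94π to a maximum of 4.52 at 1.12π in culture 1, on the log2(value + 1) scale. In culture 2 it rose from 1.06 at 0.025π to 4.49 at 1.11π. The difference of maximum and minimum was 3.56 and 3.43 (3.50 ± 0.09, SD, n = 2). None of the 42 S and 47 other G2M genes of Seurat had as wide a range in either culture. For the same fold, a range on the log2(value + 1) scale is wider in a gene of higher level. The comparison is therefore not read as an order of relative change. At a loess span of 0.3, the maximum at 1.11π ± 0.00354 lay beside that of *Mki67*, which was not read at other spans. The maxima of the cultures are neighbouring points of the grid on which the line was read, so this SD is limited by the grid. The middle of the log2 range was passed earlier than by *Mki67*. The line of *Hmgb2* passed the middle of its range at 0.510π ± 0.00707, after *Pcna* (0.260π ± 0.0141) and before *Mki67* (0.683π ± 0.0177). *Top2a* passed its own middle at 0.543π ± 0.0177, later than *Hmgb2* in each culture (0.555π against 0.505π, and 0.530π against 0.515π). The difference is smaller in culture 2 than the spread between cultures. A middle on the log2(value + 1) scale shifts with the level of a gene. These positions are therefore not read as an order of onset, and the order on the linear scale was not tested.

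**Figure D2:**
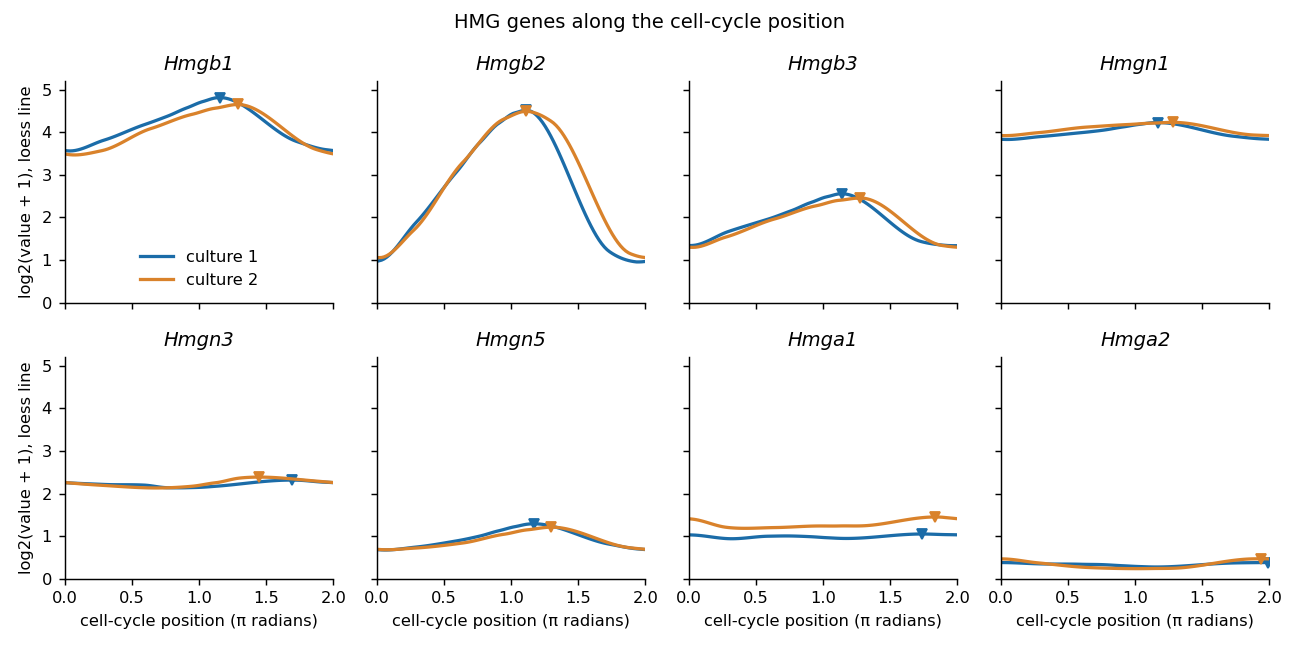
Periodic loess lines of log2(value + 1) (y axis) along the cell-cycle position in π radians (x axis) for the 8 HMG genes, with culture 1 in blue and culture 2 in orange and a triangle at each maximum. *Hmgb2* spans 3.56 and 3.43 log2 units, *Hmgb1* and *Hmgb3* between 1.16 and 1.25, and *Hmga1* and *Hmga2* between 0.10 and 0.27, at a loess span of 0.3. No error band is drawn, and the 2 lines show the spread between cultures.

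Values by class of the position show the same rise without a fitted line, but the fall differs. In culture 1 the mean log2(value + 1) of *Hmgb2* from 1.5π to 1.75π was 2.63, while the loess line stood at 1.68 at 1.615π. In culture 2 the mean was 2.98 and the line stood at 2.49. The position was divided into 8 equal classes. The mean value of *Hmgb2* in culture 1 was 1.97 from 0 to 0.25π, then 4.63, 8.99, 17.9 and 24.9 in the classes up to 1.25π. After that class it was 12.7, 6.66 and 1.12. In culture 2 the means were 2.24, 4.69, 9.32, 18.1, 24.4, 15.7, 8.80 and 1.60. The level rose through S phase and was highest from π to 1.25π in both cultures. The fold of the highest over the lowest class, from 1.75π to 2π, was 22.3 in culture 1 and 15.2 in culture 2. In the highest class all 1064 and 1120 cells had a value above 0, which allows a share at 0 of up to 0.282% and 0.268% (3 counts). In the lowest class 64.7% of 1789 and 61.6% of 3149 cells had one. Such shares depend on depth, and the median was 20527 and 17813 UMIs in the highest class and 18437 and 13991 in the lowest. The part of free RNA in these shares was not tested.

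*Hmgb1* (ENSMUSG00000066551, chr5:149046702-149184489, minus strand) and *Hmgb3* (ENSMUSG00000015217, chrX:71555918-71560676, plus strand) rose with *Hmgb2* over a narrower range. Mean values of *Hmgb1*, whose protein also acts as an alarm signal outside cells, in culture 1 were 14.0, 16.8, 19.9, 22.6, 29.6, 29.6, 27.7 and 12.6 over the 8 classes. In culture 2 they were 12.9, 15.6, 17.7, 19.5, 24.7, 24.0, 23.2 and 12.8. Its fold of the class from π to 1.25π over the last class was 2.34 and 1.93. The means of *Hmgb3* went from 1.84 in the last class to 5.91 from π to 1.25π in culture 1, a 3.22-fold difference, and from 1.96 to 5.25, a 2.68-fold difference, in culture 2.

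The HMGB genes parted between 1.25π and 1.75π, after the maximum. From the class of π to 1.25π to that of 1.5π to 1.75π, the mean of *Hmgb2* was lower by 3.73-fold in culture 1 and 2.77-fold in culture 2. *Hmgb1* was lower by 1.07-fold in both, and *Hmgb3* by 1.38-fold and 1.18-fold. The drop of *Hmgb1* came between the last classes instead, with 2.19-fold and 1.81-fold more from 1.5π to 1.75π than from 1.75π to 2π. The loess lines passed the middle of their fall at 1.465π and 1.58π for *Hmgb2* and at 1.52π and 1.64π for *Hmgb1*. At 1.62π the line of *Hmgb1* stood at 3.96 and 4.10, below the mean log2(value + 1) of 4.77 and 4.50 from 1.5π to 1.75π. The ratio of the mean *Hmgb2* value to the mean *Hmgb1* value was 0.840 in culture 1 and 0.986 in culture 2 from π to 1.25π. This ratio of values on unlike scales is read only for its change. It was 0.240 and 0.380 from 1.5π to 1.75π, and 0.0883 and 0.125 from 1.75π to 2π. These classes are thinly filled, with 85 and 64 cells in culture 1 and 279 and 189 in culture 2 from 1.25π to 1.5π and from 1.5π to 1.75π, and their median depth of 14111 and 14812 UMIs in culture 1 and 11882 and 12386 in culture 2 was the lowest of all classes.

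*Hmgb2* may be among the genes that set the deposited position, which was not checked. The order was therefore read again on an angle computed here from 500 cell-cycle genes of each culture without any HMG gene. That angle had a circular correlation of 0.918 with the deposited position in culture 1 and 0.937 in culture 2. On it, *Hmgb2* was lower by 3.14-fold and 3.66-fold from the class of π to 1.25π to that of 1.5π to 1.75π, *Hmgb3* by 1.26-fold and 1.28-fold, and *Hmgb1* by 1.06-fold and 1.09-fold. The classes from 1.5π to 1.75π held 75 and 186 cells. The R2 of *Hmgb2* on this angle was 0.826 and 0.744, and the same 5 members were called.

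**Figure D3:**
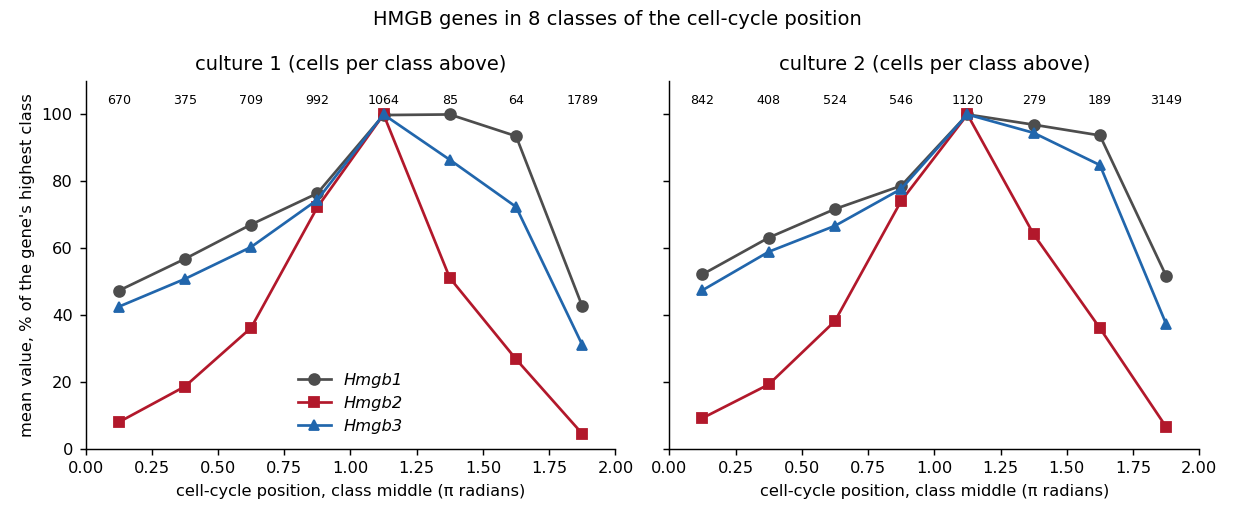
Mean value of *Hmgb1* (circles), *Hmgb2* (squares) and *Hmgb3* (triangles) in 8 classes of the cell-cycle position, as a percentage of the gene's own highest class (y axis), against the middle of the class in π radians (x axis). The left panel is culture 1 and the right panel culture 2, with the number of cells above each class. The genes rise together up to the class from π to 1.25π, after which *Hmgb2* falls first and *Hmgb1* stays near its highest mean until 1.75π.

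The sequences before the start sites of the HMGB genes are shown because these genes rose together, beside that of *Hmga2*, which was not called. They are the 250 bases before the first start listed by RefSeq on GRCm38.p6, 5′ to 3′ on the strand of the gene. The windows are chr5:149053058-149053307 (minus strand) for *Hmgb1*, chr8:57511593-57511842 (plus) for *Hmgb2*, chrX:71555667-71555916 (plus) for *Hmgb3* and chr10:120476470-120476719 (minus) for *Hmga2*. Capitals mark CCAAT and TTTGAA on either strand, and the motifs were picked after the *Hmgb2* sequence had been seen.
Hmgb1: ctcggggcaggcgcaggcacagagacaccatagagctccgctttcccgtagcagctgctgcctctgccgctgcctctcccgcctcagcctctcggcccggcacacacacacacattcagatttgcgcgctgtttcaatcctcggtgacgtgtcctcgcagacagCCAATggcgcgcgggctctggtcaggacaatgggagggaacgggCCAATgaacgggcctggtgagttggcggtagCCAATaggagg
Hmgb2: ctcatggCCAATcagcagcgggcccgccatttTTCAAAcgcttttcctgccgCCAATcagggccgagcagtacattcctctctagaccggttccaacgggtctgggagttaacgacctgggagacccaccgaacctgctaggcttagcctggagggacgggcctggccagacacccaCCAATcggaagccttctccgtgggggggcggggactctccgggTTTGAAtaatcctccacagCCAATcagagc
Hmgb3: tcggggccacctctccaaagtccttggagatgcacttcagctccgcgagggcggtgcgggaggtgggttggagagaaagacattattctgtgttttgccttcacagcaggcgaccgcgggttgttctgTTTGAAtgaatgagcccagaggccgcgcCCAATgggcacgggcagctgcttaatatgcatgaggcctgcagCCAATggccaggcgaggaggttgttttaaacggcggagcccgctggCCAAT
Hmga2: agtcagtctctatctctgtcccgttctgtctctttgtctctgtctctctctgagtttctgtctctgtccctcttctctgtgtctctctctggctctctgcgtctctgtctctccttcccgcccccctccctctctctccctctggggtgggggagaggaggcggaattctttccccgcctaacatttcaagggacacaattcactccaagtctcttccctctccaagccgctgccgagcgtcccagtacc

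The CCAAT letters stand 4 times in the *Hmgb2* window and 3 times each in those of *Hmgb1* and *Hmgb3*, all on the strand of the gene. In the *Hmgb2* window they begin at -243, -198, -73 and -11, counted from the start site. Of 32851 windows of all genes, 33.8% hold CCAAT on either strand at least once, 10.1% at least 2 times and 2.79% at least 3 times. *Hmgn1* and *Hmgn5* have 2 matches each, a second listed start of *Hmgb1* has none, and *Hmga1* and *Hmga2* have none at any listed start. TTTGAA, the letters of the cell-cycle homology region of mitotic genes, stands 2 times in the *Hmgb2* window, at -30 on the strand of the gene and at -218 on the other, and 1 time in that of *Hmgb3*. It is in 16.0% of all windows, at least 2 times in 1.81%. The letters TTCGAA and the E2F-like TTTGGCGC, TTTCGCGC and TTTCCCGC were in no member's window and in 1.34%, 0.417%, 0.256% and 0.895% of all windows. Windows were found for 8 of the 9 named genes, which include *Hmgn2*, and none was found for *Hmgn3*. A match describes the letters and does not show that a factor binds there.

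Among HMGN genes, *Hmgn1* (ENSMUSG00000040681, chr16:96120618-96127729, minus strand) had the smallest relative change of the called members. Its mean value was 14.1 from 1.75π to 2π and 18.7 from π to 1.25π in culture 1, and 15.0 and 18.4 in culture 2, which are 1.33-fold and 1.22-fold differences. The means from 1.5π to 1.75π were 17.8 and 18.5, so that *Hmgn1*, like *Hmgb1*, was still near its highest level there. *Hmgn5* (ENSMUSG00000031245, chrX:109004534-109013404, minus strand), which encodes a nucleosome-binding protein with a long acidic tail, had 0.923 and 1.98 in the same classes of culture 1 and 0.872 and 1.69 in culture 2. These are 2.15-fold and 1.94-fold differences, close to those of *Hmgb1* although *Hmgn5* had a far lower R2. It was above 0 in 63.0% and 61.2% of all cells, where *Hmgb1* was above 0 in 99.6% and 99.3%.

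*Hmgn3* (ENSMUSG00000066456, chr9:83109948-83146685, minus strand) was not called. Its mean value was lowest from 0.75π to π, at 3.72 in culture 1 and 3.98 in culture 2, and highest from 1.25π to 1.5π, at 4.89 and 5.32. The folds of 1.31 and 1.33 were alike in both cultures. The loess maxima lay at 1.69π and 1.45π, which is a wide spread (SD 0.170π).

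The HMGA genes, *Hmga1* (ENSMUSG00000046711, chr17:27556497-27563674, plus strand) and *Hmga2* (ENSMUSG00000056758, chr10:120361275-120476469, minus strand), had their highest means in the class from 1.75π to 2π, where *Hmgb2* was lowest. The mean value of *Hmga1* was 1.98 there against 1.27 from π to 1.25π in culture 1, and 3.40 against 2.31 in culture 2. *Hmga2* had 0.580 against 0.299, and 0.780 against 0.332. Its share of cells above 0 was 27.2% against 26.6%, and 28.9% against 18.4%. In culture 1 its mean from 1.25π to 1.5π was nearly as high, at 0.575 in 85 cells. On the angle computed without HMG genes, its mean in culture 1 was 0.763 from 1.5π to 1.75π (75 cells), above 0.557 in the last class. In culture 2 these were 0.443 and 0.785. Neither gene was called, and the range of the loess line was 0.11 log2 in culture 1 and 0.27 in culture 2 for *Hmga1* (0.19 ± 0.11, SD, n = 2), and 0.10 and 0.23 for *Hmga2* (0.17 ± 0.09). These ranges depend on the loess span, and with a span of 0.1 in place of 0.3 they were 0.65 for *Hmga1* and 0.40 for *Hmga2*. For *Hmga1* the higher mean came with more cells at high values. Its 90th percentile was 4.48 in the last class of culture 1 against 2.92 from π to 1.25π, and 9.22 against 5.34 in culture 2, while the median was 0.797 against 0.818 and 1.29 against 1.10.

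*Hmga1* and *Hmga2* went together in the same cells. Their Pearson r over cells on the log2 scale was 0.255 in culture 1 and 0.324 in culture 2, and it was 0.246 and 0.298 after the position and total UMIs had been taken out. By the lower r of the 2 cultures, each was the gene most like the other among 10665 genes, a ranking made after the values were seen. The margin was narrow for *Hmga1*, for which *Ociad2* came next with an r of 0.25 and 0.252. In culture 2 alone, *Pdgfa* had a higher r with *Hmga1* (0.365) than *Hmga2* had, against 0.244 in culture 1. From 1.75π to 2π, the mean value of *Hmga1* was 3.87 in the 486 cells with *Hmga2* above 0 and 1.27 in the 1303 cells with *Hmga2* at 0 of culture 1. In culture 2 it was 6.32 in 910 cells and 2.21 in 2239 cells. These are 3.05-fold and 2.86-fold differences, and the fold of the other 6 members lay between 0.827 and 1.01. The median depth was 19538 against 18163 UMIs in culture 1 and 14964 against 13604 in culture 2, and the part of depth in the difference was not tested. *Hmga2* was above 0 in only 27.6% and 24.2% of all cells.

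**Figure D4:**
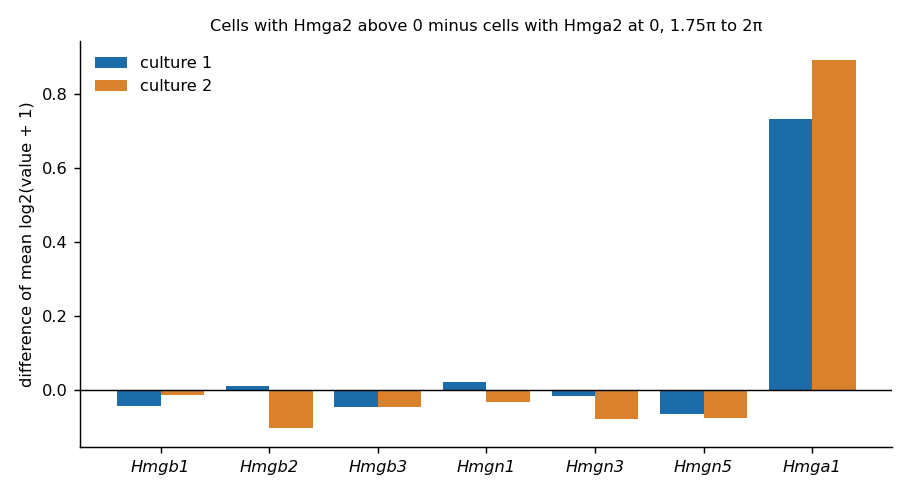
Mean log2(value + 1) of 7 HMG genes in cells with *Hmga2* above 0 minus that in cells with *Hmga2* at 0 (y axis), within the class from 1.75π to 2π, for culture 1 (blue bars) and culture 2 (orange bars). *Hmga1* differs by 0.73 and 0.89, and the other genes by between -0.10 and 0.02. There is 1 value per culture, so no error bar is drawn.

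Mean values over all cells are given side by side, without an order of the cultures. They were 9.95 in culture 1 and 8.07 in culture 2 for *Hmgb2*, 19.2 and 16.5 for *Hmgb1*, 3.48 and 3.08 for *Hmgb3*, and 1.57 and 2.64 for *Hmga1*. The most frequent low value, rescaled to total UMIs, in culture 2 over that in culture 1 was 0.494 for *Hmgn1*, 0.696 for *Hmgb1*, 0.733 for *Hmgn5* and between 1 and 1.17 for the other members. It rests on only 14 and 11 low values in the respective cultures for *Hmgn1* and on 48 and 141 for *Hmgb1*. These ratios of *Hmgn1* and *Hmgb1* are therefore not read as a difference of scale. Every other member had at least 529 low values in each culture. Reads of *Hmga1* can be shared with *Hmga1b*, a near-identical copy, and those of *Hmgb1* with the 14 pseudogenes that GENCODE names for it, so both levels are uncertain. Cells from 1.75π to 2π made up 31.1% of culture 1 and 44.6% of culture 2, so means over all cells also reflect that share.

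The called members were correlated with each other over cells, and the r was lower once the position and total UMIs had been taken out. For *Hmgb2* and *Hmgb1* it was 0.550 in culture 1 and 0.455 in culture 2 before, and 0.0897 and 0.112 after. For *Hmgb2* and *Hmgb3* it was 0.505 and 0.437 before, and 0.0369 and 0.102 after. The pairs of *Hmgb1* with other members kept more. With *Hmgb3* the r was 0.495 and 0.380 before, and 0.228 and 0.203 after. With *Hmgn1* it was 0.413 and 0.294, then 0.283 and 0.209, and with *Hmgn5* 0.305 and 0.247, then 0.166 and 0.156. These cells share a library and a normalization to depth.

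The genes most like each called member were ranked by the lower r of the 2 cultures. *Hmgb2* was followed by *Pclaf*, a PCNA-binding factor (r of 0.831 and 0.749), and by *Cdca8* (0.773 and 0.748) and *Birc5* (0.785 and 0.716), both of the chromosomal passenger complex. *Stmn1*, a regulator of microtubules, came first for the other 4 called members. Its r was 0.679 and 0.580 with *Hmgb1*, 0.509 and 0.462 with *Hmgb3*, 0.391 and 0.271 with *Hmgn1*, and 0.284 and 0.279 with *Hmgn5*. *Ptma* and *Cenpa* came next for *Hmgb1*, *Pclaf* and *Cenpa* for *Hmgb3*, *Pclaf* and *Ranbp1* for *Hmgn1*, and *Cenpa* and the histone variant gene *H2afv* for *Hmgn5*. These r are descriptions over cells of 1 library each.

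The deposited stages gave different orders. In G1, S and G2M cells of Seurat, the mean value of *Hmgb1* was 13.3, 19.6 and 28.3 in culture 1 and 12.9, 17.2 and 24.1 in culture 2. *Hmgb3* had 2.05, 3.66 and 5.54, and 2.09, 3.47 and 5.05. *Hmgb2* is itself in the G2M list, and had 1.40, 10.1 and 23.3, and 1.78, 9.23 and 21.7. All 3 genes were lowest in G1 and highest in G2M. The stages of cyclone, with only 133 and 56 S cells, gave that order too. Their *Hmgb2* means were 5.74, 20.2 and 25.4, and 4.68, 16.7 and 24.7. The deposited stages of the SchwabeCC method, which divide the cycle into G1.S, S, G2, G2.M and M.G1, did not give that order. There *Hmgb2* had 8.12, 14.6, 11.7, 11.5 and 5.51 in culture 1, and 6.58, 10.5, 10.8, 12.9 and 4.90 in culture 2. It was highest in S cells of culture 1 and in G2.M cells of culture 2. *Hmgb1* had 18.3, 20.7, 16.7, 21.6 and 20.4, and 16.1, 15.8, 15.6, 20.2 and 17.4, and was lowest in G2 cells. *Hmgb3* had 3.26, 3.98, 2.91, 4.19 and 3.38, and 3.05, 3.07, 2.91, 4.27 and 2.89, and was highest in G2.M cells. These stages leave 2451 and 3151 cells without a stage. The paper states that SchwabeCC wrongly places cells of G0 and G1 in other stages. Of its G2.M cells, 77.1% and 84.2% had *Hmgb2* above 0, against 100% and 99.8% of the G2M cells of Seurat. The part of misplaced cells in these orders was not tested.

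Of other genes with an HMG box, 26 of 35 listed were measured and 2 were called. The called genes are *Ssrp1*, a subunit of the histone chaperone FACT (R2 of 0.226 and 0.128), and *Wdhd1*, a replication factor (0.0911 and 0.0793). Over all genes 428 of 10666 (4.01%) were called. The median lower R2 was 0.00223 in this list and 0.00183 over all genes. Counts this small, here and in the lists below, are not read as a result about a list. Of the SET complex, which binds HMGB2, 2 of 5 genes were measured and *Set* was called (0.140 and 0.0820). Of 4 measured genes listed as regulators or targets of *Hmga2*, *Cdkn2b*, an inhibitor of G1 kinases, was called (0.0732 and 0.0555), with its fitted maximum at 1.79π and 1.77π. *Cdkn2a*, another inhibitor gene of the list, was not called (0.0206 and 0.0373). Linker histones and the receptors and partners of HMGB1 outside the cell were not analysed here.

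Cells with both astroglial markers had a lower mean *Hmgb1* value. Among cells below 0.25π or from 1.5π on, the 293 cells of culture 1 with both *S100b* and *Aldh1l1* above 0 had a mean *Hmgb1* value of 10.3, against 15.0 in 1140 cells with both at 0. In culture 2 the means were 11.5 in 98 cells and 14.0 in 2726 cells. The median depth was 21110 against 15988 UMIs in culture 1 and 15423 against 13679 in culture 2, and its part in the difference was not tested. *Hmgb2* had 1.45 against 1.63 and 1.76 against 2.13. *Hmgb3* had 1.70 against 2.33 and 1.85 against 2.25, and *Hmgn1* had 12.5 against 15.0 and 14.3 against 15.5. *Hmgn5* and *Hmga2* were lower in both cultures too, while *Hmgn3* was higher (4.88 against 4.18 and 4.72 against 4.45). *Hmga1* had 1.74 against 1.74 and 4.33 against 2.95. The groups were not matched for position. For cells with at least 3 of 4 oligodendrocyte progenitor markers, the *Hmgb2* mean in culture 1 was 1.36 in 49 cells against 2.06 in 59 cells with none. In culture 2 it was 2.29 in 24 cells against 2.29 in 321 cells. Median totals were 15151 against 14273 UMIs in culture 1 and 17969 against 12630 in culture 2, and their part was not tested. Cells with none also lack *Olig2*, which was above 0 in 97.3% and 91.9% of all cells. Only 2 cells of culture 1 and 0 of culture 2 had all 3 neuroblast markers that were measured.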

How the data were processed

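Cells of 2 replicate cultures of neurospheres were profiled with 10x Genomics Chromium libraries. Per their methods and processing notes, the authors quantified spliced reads with alevin (Salmon 1.3.0) on GRCm38, removed cells that were outliers in depth, genes, mitochondrial share or doublet score along with rarely expressed genes, and integrated the cultures with Seurat 3.2.2 before the position was computed. Expression was used as a signal on a linear scale, which the authors had normalized to the depth of each cell. Depth was taken from the deposited total of UMIs, a sum of estimated counts. The deposited cell table also holds, as other values, the cell-cycle position and the stages of 3 methods. Whole molecules could not be recovered from the values, so no count model was used.

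Values were transformed as log2(value + 1). A least-squares fit of 2 harmonics was made for every gene and culture, and a gene was called at an R2 of at least 0.05 in both. Periodic loess lines had degree 2 and a span of 0.3 on tripled data, as the study does not state a span. The position was also recomputed within each culture by PCA of the 500 most variable of 602 cell-cycle genes (cyclone markers and Seurat lists) without the members. The harmonic step was tested on simulated data. No further filter on cells or doublets was applied. Analysis used Python 3.11.15, numpy 2.4.6, pandas 2.3.3 and R 4.3.3, with the cyclone pairs of scran 1.30.0 and the gene lists of Seurat 5.3.0. Gene coordinates are from GENCODE and start sites from RefSeq, both on GRCm38.

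With 1 condition no p-value is given. Limits for a share of 0 cover counting error only. The members, gene lists and motifs were chosen with earlier results of these data known. The genes named are the members, landmark genes, the 3 genes most like each called member, and the called genes and the highest by deposited mean value of each list, which is not read as an order of levels. *Ociad2* and *Pdgfa* are named as those next most like *Hmga1*. The lists were other HMG-box genes, linker histones, the SET complex, partners of HMGB1 outside the cell, regulators and targets of *Hmga2*, and markers of cell types. Alternatives were other pseudocounts, spans, thresholds and numbers of harmonics, a depth term, a detection filter, the recomputed position and each culture left out. Leaving out cells of shared barcodes was added after seeing the data.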

Additional observations from a re-analysis of the deposited data

How the results depend on the processing

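The count of 5 called members held under all alternatives run except an R2 threshold of 0.1, which left 3. Without each culture in turn it was 5. The rule fixes only that it could not be lower, since a call needs both cultures. The position of the *Hmgb2* maximum, 1.11π, was 1.09π on the position recomputed without the members, 1.08π with a loess span of 0.1 and 1.01π with a span of 0.5. Without each culture in turn it ranged from 1.11π to 1.12π. The difference of its maximum and minimum, 3.50 on the log2 scale, was 4.01 with a pseudocount of 0.5, 2.92 with a pseudocount of 2, 3.83 with a span of 0.1 and 2.91 with a span of 0.5, and it ranged from 3.43 to 3.56 without each culture, which are the values of the single cultures. A larger pseudocount and a wider span lower it by construction. Leaving out the cells of barcodes found in both libraries kept 1.11π, 3.50 and 5 called members.

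With both cultures kept, 17 of 35 values of the range and 22 of 35 of the position of the maximum of the other 7 members stayed within the SD between cultures, and so did 41 of 48 values of R2 over all 8 members. The maximum of *Hmgb1* was at 1.35π with a span of 0.1 and at 1.07π with a span of 0.5, and the cause was not tested. No paired analysis was possible because the 2 cultures belong to 1 group. The 2 cultures limit every spread to 2 values, and of all genes 890 were called at an R2 threshold of 0.02 and 240 at 0.1, against 428.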
